A study of Homo sapiens with 12 samples.

Results

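Interferon regulatory factors and interferon-induced genes were followed in melanoma cells treated with DdBIC, hemin or both. The set holds 9 genes, chosen by symbol: the transcription factors IRF1, IRF3, IRF7 and IRF9, and the induced genes IFIT1, IFIT2, IFIT3, ISG15 and MX1. They are 9 of the 20263 genes in the table, and all 9 were among the 14287 genes tested. The cells were A375, an established melanoma line of human origin labelled WT for genotype, sequenced by RNA-seq in 4 groups of 3 libraries. The groups were untreated cells (Ctrl), cells treated with DdBIC (written DBIC in the labels), with Hemin, and with both agents (DdBIC+Hemin). DdBIC is a small molecule with which the study triggers pyroptosis, a lytic cell death, through the pore-forming protein GSDMC, and hemin is a form of heme added to restore the heme level of the cells. Neither the dose nor the duration used for RNA-seq is stated in the sources at hand. Nothing in the labels says that the 3 libraries of a group came from separate cultures, so the p-values measure the spread between these libraries, which may be technical.

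Type I interferons are secreted proteins that bind the IFNAR1 and IFNAR2 receptor chains and lead, through the kinases JAK1 and TYK2, to a complex that contains STAT2 and IRF9. This complex binds the interferon-stimulated response element (ISRE) in the promoters of genes such as IFIT1, ISG15 and MX1, whose products restrict virus replication. IRF3 and IRF7 are activated downstream of nucleic acid sensors and switch on the interferon genes, while IRF1 is itself induced by interferon-gamma, through a promoter element called GAS, and by NF-kappaB.

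The promoter sequences of the members were read first, because they show which response elements the members carry. RefSeq windows of 300 bases, from 250 before to 50 after a gene's start on GRCh38.p14, were found for 6 of the 9 members (IRF1, IRF9, IFIT1, IFIT3, ISG15 and MX1), with 9 windows in all, since IFIT3 and MX1 have several starts. IRF3, IRF7 and IFIT2 had no entry. Several motifs were searched on both strands: ISRE as GAAANNGAAA, GAS as TTCNNNGAA, which reads the same on both strands, and NF-kappaB by its usual consensus. ISRE letters were present in 6 of the 9 member windows (66.7%), against 3.57% of all 35116 windows. GAS letters were present in 3 of the 9 (33.3%), against 7.66%, and NF-kappaB letters in 3 (33.3%), against 11.3%. Of 60 windows of other interferon-induced genes, 53.3% held ISRE letters and 28.3% GAS letters. A match is a description of the sequence and does not show that a factor binds there.

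The IRF1 and IRF9 windows held no ISRE letters. IRF1 had a GAS match that begins 124 bases before the start and an NF-kappaB match 50 bases before it. IRF9 had a GAS match 63 bases before the start. The stretches below run from 18 bases before the first match to 18 bases after the last, on the strand of the gene, with the matches in capitals. That of IRF1 is chr5:132490796-132490915 on the minus strand, and that of IRF9 is chr14:24161184-24161228 on the plus strand.
IRF1: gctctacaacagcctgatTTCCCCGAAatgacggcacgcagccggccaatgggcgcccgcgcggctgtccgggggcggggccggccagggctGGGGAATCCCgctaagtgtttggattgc
IRF9: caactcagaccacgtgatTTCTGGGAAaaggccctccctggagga

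Each induced gene with a window had ISRE letters in at least 1 window, and IFIT1, IFIT3 and ISG15 had a pair of them in each. They are shown in capitals, all on the plus strand of the chromosome, for IFIT1 at chr10:89392489-89392547, for the IFIT3 starts at chr10:89327823-89327902 and chr10:89332417-89332505, and for ISG15 at chr1:1013366-1013417. In ISG15 the matches overlap by 4 bases. MX1 had 1 match 11 bases after its first start, at chr21:41420551-41420596, and 1 that begins 196 bases before the last of its 3 starts, at chr21:41431836-41431881. The latter overlaps GAS letters that begin 189 bases before that start, and the window of the middle start held no match to any of the motifs. MX1 also had NF-kappaB letters that begin 200 bases before its first start and 89 bases before its last, outside the stretches shown. The stretches of IRF9, ISG15, MX1 and the second IFIT3 start lie wholly inside the span that the deposited table gives these genes.
IFIT1: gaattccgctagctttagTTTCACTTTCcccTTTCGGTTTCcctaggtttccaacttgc
IFIT3, first start: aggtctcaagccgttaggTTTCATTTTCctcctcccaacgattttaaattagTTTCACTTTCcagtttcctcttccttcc
IFIT3, second start: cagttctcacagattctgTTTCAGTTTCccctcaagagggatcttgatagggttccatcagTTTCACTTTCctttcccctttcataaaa
ISG15: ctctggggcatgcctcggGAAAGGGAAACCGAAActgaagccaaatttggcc
MX1, first start: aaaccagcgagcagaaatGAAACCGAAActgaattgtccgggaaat
MX1, last start: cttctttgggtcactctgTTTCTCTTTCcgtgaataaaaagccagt

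The libraries held 37951275 to 44358912 counted reads each, and 3 counts, taken as the floor of detection, came to 0.0684 to 0.0784 CPM (the count divided by the library total in units of 1e6 reads, after TMM scaling). HMOX1, the heme oxygenase that heme induces, was measured to check the hemin labels, and its level was 63.2 ± 2.0 CPM (SD, n = 3) in the Hemin libraries and 169 ± 21 CPM after both agents, against 8.71 ± 0.63 CPM in Ctrl and 7.82 ± 0.79 CPM after DdBIC. Of 7 melanocyte lineage markers, SOX10 was abundant in each group (means of 549 to 741 CPM), whereas MLANA, DCT and TYR, which mark pigmented cells, stayed under 1 CPM in each library. The summed level of that list was highest with DdBIC, at 736.0 to 796.8 CPM, followed by Ctrl (642.6 to 670.2), both agents (576.8 to 666.4) and Hemin (570.5 to 578.2). Of the 6 markers tested, 2 rose and 1 fell with DdBIC. SOX10, which carries the sum, rose (0.23 on the log2 scale, adjusted p = 0.00254), as did PMEL, a pigment granule protein, from 0.461 ± 0.046 to 0.865 ± 0.26 CPM (adjusted p = 0.0276). S100B fell from 9.48 ± 0.98 to 7.38 ± 0.82 CPM (adjusted p = 0.0210) and was at 11.8 ± 0.95 CPM with Hemin. Of 9 leukocyte markers, the defining genes PTPRC and MS4A1 were at 0 in each library, and the list summed to 24.0 to 29.3 CPM with DdBIC, against 30.3 to 31.1 in Ctrl, 30.1 to 33.0 after both agents and 27.9 to 29.7 after Hemin, with CD68 as its most abundant gene. CD68 was at 27.3 ± 0.28 CPM in Ctrl and 23.8 ± 3.4 with DdBIC (adjusted p = 0.0865) and rose with both agents against DdBIC, to 28.6 ± 1.1 CPM (adjusted p = 0.0311), the 1 call among the 4 leukocyte markers tested in that comparison. The 8 fibroblast and keratinocyte markers, none of them at 0 throughout, summed to 69.2 to 76.5 CPM after DdBIC, 65.8 to 69.9 in Ctrl, 62.7 to 70.2 after both agents and 69.95 to 77.7 after Hemin. KRT10 carries that sum and rose with DdBIC, from 51.2 ± 2.1 to 58.7 ± 3.5 CPM (adjusted p = 0.0396), and fell with both agents against DdBIC, to 50.5 ± 3.9 CPM (adjusted p = 0.0300). LUM fell with DdBIC from 8.63 ± 0.77 to 6.55 ± 0.61 CPM (adjusted p = 0.0120) and rose with both agents against DdBIC, to 8.81 ± 0.57 CPM (adjusted p = 0.00946), the same directions as IFIT1 and IFIT3. These markers were named after their values were seen. The part of these shifts in the results was not tested.

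The members differed in their basal level. Per unit of transcript length, as TPM, in which lengths and library totals are both scaled out, IRF3 was the most abundant in Ctrl, at 35.8 ± 2.1 TPM (SD, n = 3). IRF1 followed at 11.3 ± 0.43 TPM and IRF7 at 8.97 ± 0.24 TPM. ISG15 (7.83 ± 0.034), IFIT3 (7.64 ± 0.78), IRF9 (6.09 ± 2.74) and MX1 (4.91 ± 1.44 TPM) formed a middle group whose neighbours in this order overlapped in their libraries. IFIT1 was at 2.24 ± 0.20 TPM and IFIT2, the lowest, at 0.775 ± 0.098 TPM. The length behind a TPM value differed between libraries for some members, IRF1 among them, so TPM was used for this order alone.

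Few reads came from interferon genes themselves. IFNB1, which encodes interferon-beta, had 0 counts in each of the 12 libraries, which allows up to 0.0684 to 0.0784 CPM by counting error alone. Of 11 ligand genes 1 was abundant enough to test, IFNE, an interferon of epithelia, at 0.118 ± 0.079 CPM in Ctrl and 0.419 ± 0.13 CPM with DdBIC. Its log2 fold change was 1.80 ± 0.53 (SE, adjusted p = 0.0205, edgeR quasi-likelihood test), with at most 23 counts in a library. Of the receptor chains, IFNAR1 was at 44.5 ± 1.7 CPM in Ctrl and 44.8 ± 0.65 with DdBIC (adjusted p = 0.856), and IFNAR2 at 12.8 ± 2.4 and 11.9 ± 0.91 (adjusted p = 0.570). IFNGR1 and IFNGR2, the chains for interferon-gamma, rose with DdBIC by 0.46 and 0.28 on the log2 scale (adjusted p = 0.00365 and 9.79e-04). IFNLR1 and IL10RB did not pass (adjusted p = 0.634 and 0.435). These last chains, from IFNGR1 on, were named after their values were seen.

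The comparison of DdBIC with Ctrl asks what the compound does to the set, and IRF1 and IRF7 moved in the opposite direction to the IFIT genes. IRF1 rose 3.23 fold and IRF7 1.62 fold, whereas IFIT1, IFIT2 and IFIT3 fell 1.70, 1.73 and 1.32 fold, and IRF3, ISG15 and MX1 did not pass the test. In all, 6 of the 9 members were called at adjusted p under 0.05, 2 higher and 4 lower, among 37.2% of all genes called in this comparison. The lower calls include IRF9, whose direction turned when reads of a gene model that spans it were added. The median log2 fold change of the members was -0.22, against -0.01 over all genes tested. In bulk RNA, fewer cells that express a gene and less of its RNA per cell cannot be told apart.

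IRF1, which activates both antiviral and growth-restraining genes, had the largest change of the 9. Its level was 13.1, 13.1 and 14.3 CPM in the Ctrl libraries and 47.5, 39.4 and 43.7 CPM in those with DdBIC. Each treated library lay well above the untreated ones, and the log2 fold change was 1.69 ± 0.081 (SE, adjusted p = 4.84e-08). IRF7, the factor that amplifies interferon-alpha production, went from 7.25, 7.68 and 7.68 CPM to 13.1, 12.3 and 11.3 CPM. The groups did not overlap, and its log2 fold change was 0.70 ± 0.079 (adjusted p = 4.11e-05). IRF3, the constitutive factor that sensors activate by phosphorylation rather than by synthesis, stood at 26.9, 28.7 and 26.4 CPM in Ctrl and at 27.3, 25.2 and 31.2 CPM with DdBIC. These overlapped, and the 95% interval of the log2 fold change ran from -0.17 to 0.24.

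The IFIT genes encode proteins with tetratricopeptide repeats that bind viral RNA or each other, and all 3 fell. IFIT1 went from 2.28, 2.34 and 2.51 CPM to 1.13, 1.58 and 1.49 CPM, a log2 fold change of -0.76 ± 0.14 (SE, adjusted p = 0.00152). IFIT3 went from 8.19, 9.35 and 10.1 CPM to 6.69, 7.43 and 6.81 CPM, a change of -0.40 ± 0.12 (adjusted p = 0.0209). IFIT2 was read at only 20 to 57 counts a library and went from 1.37, 1.31 and 1.13 CPM to 0.875, 0.492 and 0.827 CPM, a change of -0.79 ± 0.23 (adjusted p = 0.0182). In these genes each treated library lay below each untreated one. The IFIT2 call was lost without Ctrl replicate 1 (adjusted p = 0.0555, log2 fold change -0.73) or without DdBIC replicate 2 (0.0514, -0.57). The IFIT3 call was lost without Ctrl replicate 2 (0.0546, -0.39) or 3 (0.0794, -0.33), or DdBIC replicate 1 (0.0669, -0.37) or 3 (0.0584, -0.39). The IFIT1 call held in each alternative run, with log2 fold changes of -0.86 to -0.63.

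ISG15, a ubiquitin-like protein that is attached to other proteins, and MX1, a GTPase that blocks influenza and related viruses, did not pass the test. ISG15 was at 2.68, 2.75 and 2.71 CPM in Ctrl and at 3.06, 3.05 and 2.18 CPM with DdBIC, with an interval of the log2 fold change from -0.31 to 0.36. MX1 was at 6.78, 4.69 and 5.45 CPM and at 4.89, 4.18 and 5.44 CPM, with an interval from -0.52 to 0.08. Both genes overlapped between the groups.

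**Figure D1:**
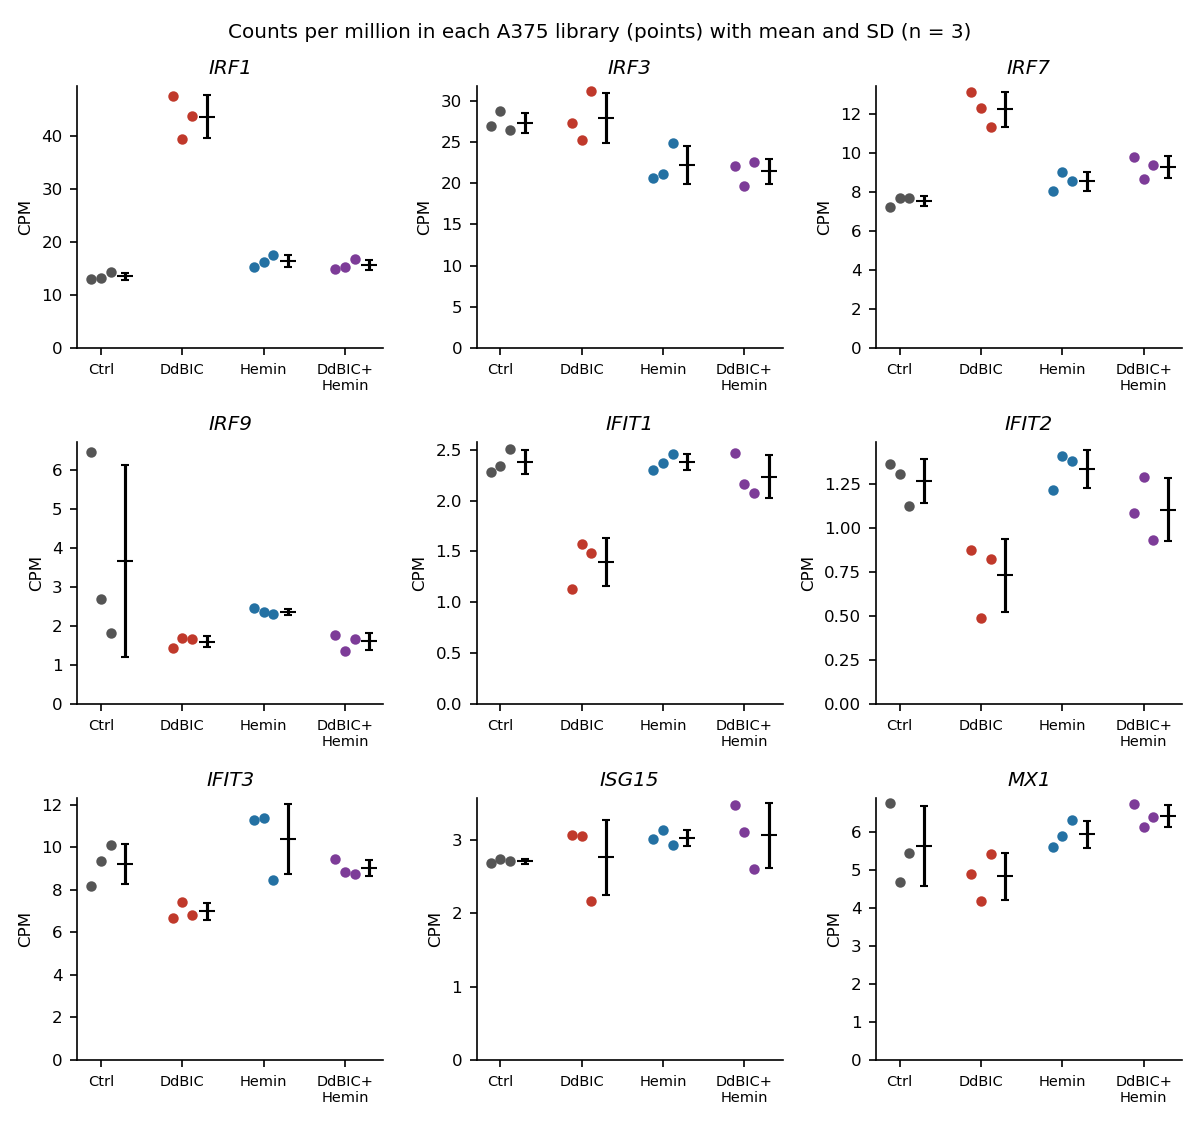
CPM (linear axis from 0) of each of the 9 members in each library, by group, with the mean and SD of 3 libraries beside the points. With DdBIC, IRF1 (47.5, 39.4 and 43.7 CPM) and IRF7 lie above and IFIT1, IFIT2 and IFIT3 below the other 3 groups, and IRF9 has 1 Ctrl library at 6.45 CPM.

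IRF9, the DNA-binding partner of STAT2, could not be given a direction. Its counts gave 6.45, 2.70 and 1.82 CPM in Ctrl and 1.44, 1.70 and 1.66 CPM with DdBIC, a log2 fold change of -1.19 ± 0.37 (SE, adjusted p = 0.0270). Without Ctrl replicate 1, which held 260 counts against 107 and 71, the change was -0.50 (adjusted p = 0.0733). The call was also lost without DdBIC replicate 1, 2 or 3 (adjusted p = 0.0836, 0.0612 and 0.0652), with log2 fold changes of -1.13, -1.24 and -1.22. All of IRF9 (chr14:24161053-24166565, plus strand, hg38) lies inside another gene model on the same strand, AL136295.5 (chr14:24151218-24167402 in GENCODE 29), which is counted in a row of its own. That model had 8.04, 11.2 and 13.4 CPM in the Ctrl libraries, lowest where IRF9 was highest. Summed, a choice made after seeing the data, the rows came to 19.7 ± 1.2 CPM in the Hemin libraries (SD, n = 3), 16.8 ± 1.0 after DdBIC, 15.3 ± 0.98 after both agents and 14.5 ± 0.65 in Ctrl. Counted alone, IRF9 was at 2.45, 2.35 and 2.30 CPM with Hemin and at 1.78, 1.37 and 1.67 CPM with both agents. The sum rose with DdBIC, by 0.21 ± 0.072 on the log2 scale (SE, adjusted p = 0.0441), and with Hemin, by 0.44 ± 0.072 (adjusted p = 0.00620). The sum also holds reads of the part of AL136295.5 outside IRF9, so the level of IRF9 itself was not resolved.

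**Figure D2:**
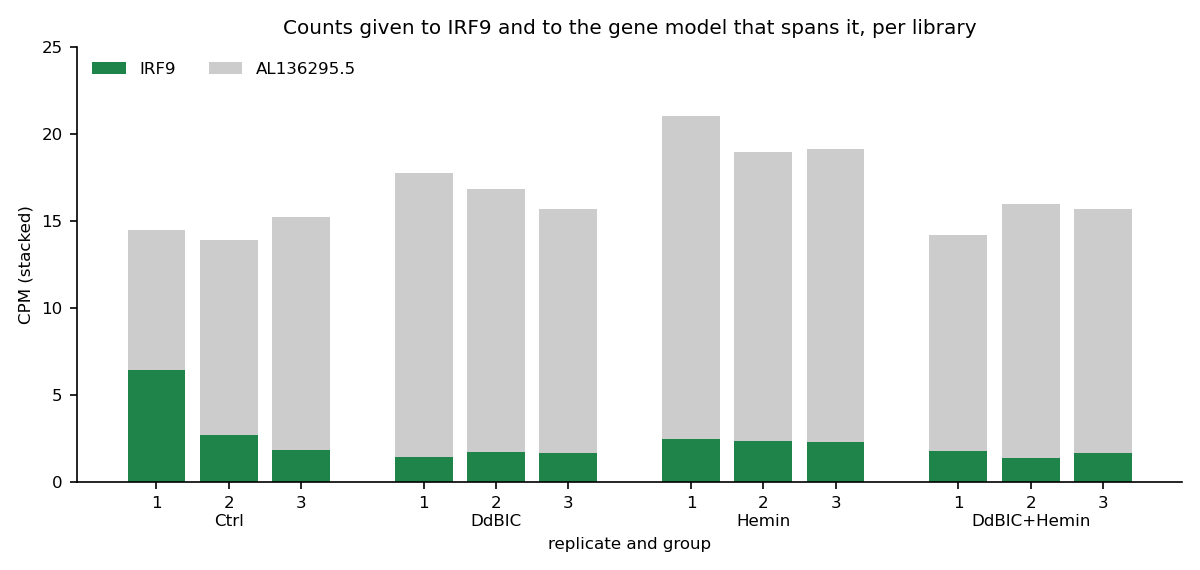
CPM (stacked bars from 0) given to IRF9 (green) and to the spanning gene model AL136295.5 (grey) in each of the 12 libraries. In Ctrl the IRF9 part ranges from 1.82 to 6.45 CPM between libraries, and the summed height is 14.5 ± 0.65 CPM.

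Other members share sequence with genes that are mostly on the opposite strand, and the use of strand in the counting is not given in the sources used here. IRF1 (chr5:132481609-132490798, minus strand) is spanned by AC116366.3, which had 0 to 254 counts a library with no order by group, and overlaps C5orf56, at 2.48 ± 0.23 CPM in Ctrl and 3.74 ± 0.17 with DdBIC. With these rows added to it, IRF1 still rose with DdBIC, by 1.43 ± 0.13 on the log2 scale (SE, adjusted p = 1.20e-05). IFIT1 (chr10:89392546-89406486), IFIT2 (chr10:89283694-89309276) and IFIT3 (chr10:89327894-89340971), on the plus strand, lie inside the annotated span of LIPA, a lysosomal lipase gene on the minus strand. LIPA went from 37.5 ± 2.3 CPM in Ctrl to 30.7 ± 1.3 with DdBIC and 40.4 ± 2.0 with both agents, that is, the same way as these IFIT genes. Its log2 fold changes were -0.29 (adjusted p = 0.00529) for DdBIC against Ctrl and 0.40 (adjusted p = 9.00e-04) for both agents against DdBIC, and its part in the IFIT values was not tested. IFIT2 also shares 8361 bases with AL353751.1, on the same strand, which has no row in the table used here. IRF3 (chr19:49659570-49665875, minus strand) shares 734 bases with BCL2L12, which rose with DdBIC (0.32, adjusted p = 0.00131) and fell with both agents against DdBIC (-0.26, adjusted p = 0.00599), in the latter the same way as IRF3, and its part in the IRF3 values was not tested. IRF7 (chr11:612553-615999, minus strand) overlaps no other GENCODE 29 gene, and ISG15 (chr1:1001138-1014541) and MX1 (chr21:41420515-41459214), on the plus strand, overlap only genes that have no row in the table used here.

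Genes of the same programme outside the set fell more often than they rose. Of 53 other interferon-induced genes 45 were tested, and with DdBIC 3 rose and 14 fell, whereas 20.0% of all genes were called higher and 17.2% lower. The median log2 fold change of the list was -0.18, with 37 of the 45 below 0, against -0.01 over all genes. MX2, the paralogue of MX1 that restricts HIV, fell from 80.8 ± 0.24 to 72.3 ± 2.5 CPM (log2 fold change -0.16, adjusted p = 0.0175), and IFIT5 was at 24.3 ± 0.84 and 22.6 ± 0.58 CPM (-0.10, adjusted p = 0.125). PARP9, a partner of the ubiquitin ligase DTX3L and named here after its values were seen, fell by 0.62 on the log2 scale (adjusted p = 1.03e-04). The genes that rose, also named after their values were seen, were GBP3, ISG20 and TRIM25, by 0.63, 0.33 and 0.46. Upper-quartile scaling gave 3 higher and 19 lower in the list, and it turned the split over all genes from 2859 higher and 2451 lower to 2310 and 3472. Without Ctrl replicate 2 the list had 2 higher and 8 lower, and all genes had 2532 higher and 2061 lower.

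Of 11 inhibitors of the pathway tested, 7 rose and none fell with DdBIC, against 20.0% of all genes called higher and 17.2% lower, and the other 4 were not called. The median log2 fold change was 0.25. SOCS1, which blocks the JAK kinases, rose from 0.866 ± 0.12 to 3.29 ± 0.71 CPM (1.92 ± 0.20, adjusted p = 2.48e-05). SOCS3, a feedback inhibitor that acts mainly on cytokine receptors of the gp130 family, rose from 19.3 ± 1.3 to 41.5 ± 4.1 CPM (1.11 ± 0.082, adjusted p = 1.58e-06). IRF2, which competes with IRF1 for its sites, was at 27.2 ± 0.67 and 29.5 ± 1.8 CPM and did not pass the test (0.12, adjusted p = 0.207). IRF2 and IRF5 were the members of the family outside the set that could be tested, of 5, and neither passed.

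Sensors and signal carriers gave calls in both directions. Of 16 nucleic acid sensors and adaptors 14 were tested, of which 4 rose and 1 fell with DdBIC, with a median log2 fold change of -0.01, the same as over all genes. The counts of this list and of the next are to be read against the same shares of all genes (20.0% higher and 17.2% lower). TICAM1, the adaptor of the double-stranded RNA receptor TLR3, rose from 22.6 ± 1.3 to 50.2 ± 1.9 CPM (1.15 ± 0.070, adjusted p = 3.31e-07). Of the 11 receptor, JAK and STAT genes 4 rose and 2 fell, with a median of 0.05. STAT2 was at 34.5 ± 1.4 and 36.4 ± 0.79 CPM (0.08, adjusted p = 0.261).

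With hemin alone, none of the 9 members was called by edgeR, among 4.06% of all genes called, and 3 had an unadjusted p under 0.05 (IRF1, IRF3 and IRF7). DESeq2 called 2 of these, IRF1 and IRF3, and 881 genes in all against 580 by edgeR. The edgeR count over all genes fell whichever library of the 2 groups was left out. It was 364, 341 and 292 without Ctrl replicate 1, 2 and 3, and 373, 272 and 338 without Hemin replicate 1, 2 and 3. IRF1 was at 15.3, 16.3 and 17.5 CPM, above each Ctrl library (log2 fold change 0.28 ± 0.080, adjusted p = 0.0818). IRF7 was at 8.07, 9.03 and 8.55 CPM, likewise above Ctrl (0.18 ± 0.079, adjusted p = 0.276). IRF3 was at 20.6, 21.1 and 24.8 CPM, below each Ctrl library (-0.30 ± 0.094, adjusted p = 0.112), and IRF2 fell (-0.29, adjusted p = 0.0454). ISG15, at 3.01, 3.14 and 2.93 CPM, also lay above each Ctrl library (0.16, adjusted p = 0.677). The share of all genes whose libraries did not overlap was not counted, so these separations are a description only. IFIT1 was at 2.30, 2.37 and 2.46 CPM, within the Ctrl range, with an interval of the log2 fold change from -0.31 to 0.31. Of the other interferon-induced genes 2 rose, GBP1 and ZC3HAV1, which encode a GTPase against intracellular pathogens and an RNA-binding antiviral protein and are named after their values were seen. This count was 0 without any 1 Ctrl library or without Hemin replicate 2, and 1 without Hemin replicate 1 or 3. As a share of the 45 tested it is near that of all genes.

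The comparison of both agents with DdBIC asks what hemin does in the presence of the compound. IRF1, IRF3 and IRF7 fell and IFIT1, IFIT3 and MX1 rose, and the means of IRF1, IRF7, IFIT1 and IFIT3 lay nearer to Ctrl than with DdBIC alone. Of the 9 members 6 were called, 3 higher and 3 lower, among 31.9% of all genes. The median log2 fold change was 0.15, against -0.01 over all genes. This comparison shares the DdBIC libraries with that of DdBIC against Ctrl, so values of opposite sign in the pair are not independent of each other.

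IRF1 was at 14.95, 15.3 and 16.7 CPM with both agents, far below each library with DdBIC alone (log2 fold change -1.48 ± 0.080, adjusted p = 2.04e-07). IRF7 was at 9.81, 8.68 and 9.39 CPM, between the Ctrl and the DdBIC libraries (-0.40 ± 0.078, adjusted p = 0.00261). IRF3 was at 22.04, 19.7 and 22.6 CPM, below each library with DdBIC (-0.38 ± 0.094, adjusted p = 0.00932). IFIT1 was at 2.47, 2.16 and 2.08 CPM and IFIT3 at 9.46, 8.85 and 8.76 CPM, all above the DdBIC libraries. The log2 fold changes were 0.67 ± 0.14 (adjusted p = 0.00405) for IFIT1 and 0.37 ± 0.12 (adjusted p = 0.0341) for IFIT3. IFIT2, at 1.09, 1.29 and 0.935 CPM, also lay above the DdBIC libraries but missed the threshold (0.59 ± 0.23, adjusted p = 0.0715), which it passed with upper-quartile scaling (0.65, adjusted p = 0.0453).

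MX1 was at 6.74, 6.14 and 6.41 CPM with both agents and lay above each DdBIC library (0.41 ± 0.14, adjusted p = 0.0409). ISG15, at 3.48, 3.11 and 2.60 CPM, overlapped with them (0.15, adjusted p = 0.4997). The MX1 call was lost without Ctrl replicate 3, any Hemin library, DdBIC replicate 1 or 2, or any library with both agents, with adjusted p of 0.05 to 0.132 and log2 fold changes of 0.32 to 0.44. That of IFIT3 was lost without DdBIC replicate 1 or 3 or any library with both agents, with adjusted p of 0.0567 to 0.0987 and log2 fold changes of 0.34 to 0.39. The calls of IRF1, IRF3, IRF7 and IFIT1 held in each alternative run.

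**Figure D3:**
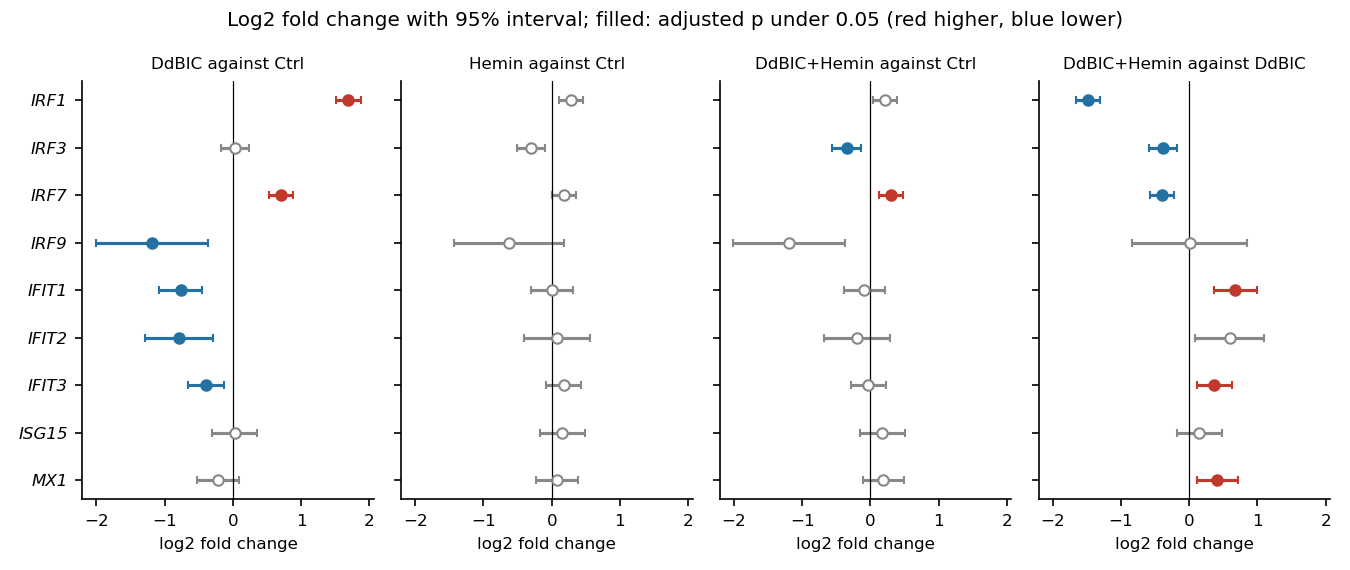
Log2 fold change (points) with its 95% interval (bars) of each of the 9 members in 4 comparisons. Filled red and blue points are higher and lower at adjusted p under 0.05. IRF1 is at 1.69 for DdBIC against Ctrl and at -1.48 for both agents against DdBIC, and no point is filled for Hemin against Ctrl.

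When hemin was added to DdBIC, calls went up among the other interferon-induced genes and mostly down among the inhibitors. Of the 45 other interferon-induced genes tested 19 rose and none fell, with a median log2 fold change of 0.25, whereas 13.5% of all genes were called higher and 18.4% lower. MX2 (0.14, adjusted p = 0.0391) and IFIT5 (0.27, adjusted p = 0.00158) were among those that rose. Upper-quartile scaling gave 25 higher and none lower in the list, and over all genes it turned 1933 higher and 2626 lower into 2948 and 2032. Of the 11 inhibitors 7 fell and 1 rose, with a median of -0.27. SOCS1 fell to 1.24 ± 0.030 CPM (-1.41 ± 0.20, adjusted p = 2.63e-04) and SOCS3 to 15.9 ± 0.90 CPM (-1.39 ± 0.083, adjusted p = 4.35e-07). The sensors and signal carriers gave calls in both directions. Of the 14 sensors and adaptors tested 2 rose and 3 fell, with a median of -0.005. Of the 11 receptor, JAK and STAT genes 2 rose and 3 fell, with a median of -0.06. TICAM1 fell to 27.8 ± 2.6 CPM (-0.85 ± 0.069, adjusted p = 4.70e-06), IRF2 to 21.3 ± 0.82 CPM (-0.47, adjusted p = 4.25e-04) and STAT2 to 31.4 ± 1.3 CPM (-0.22, adjusted p = 0.00659). IFNE stayed at 0.350 ± 0.10 CPM (-0.25, adjusted p = 0.723).

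**Figure D4:**
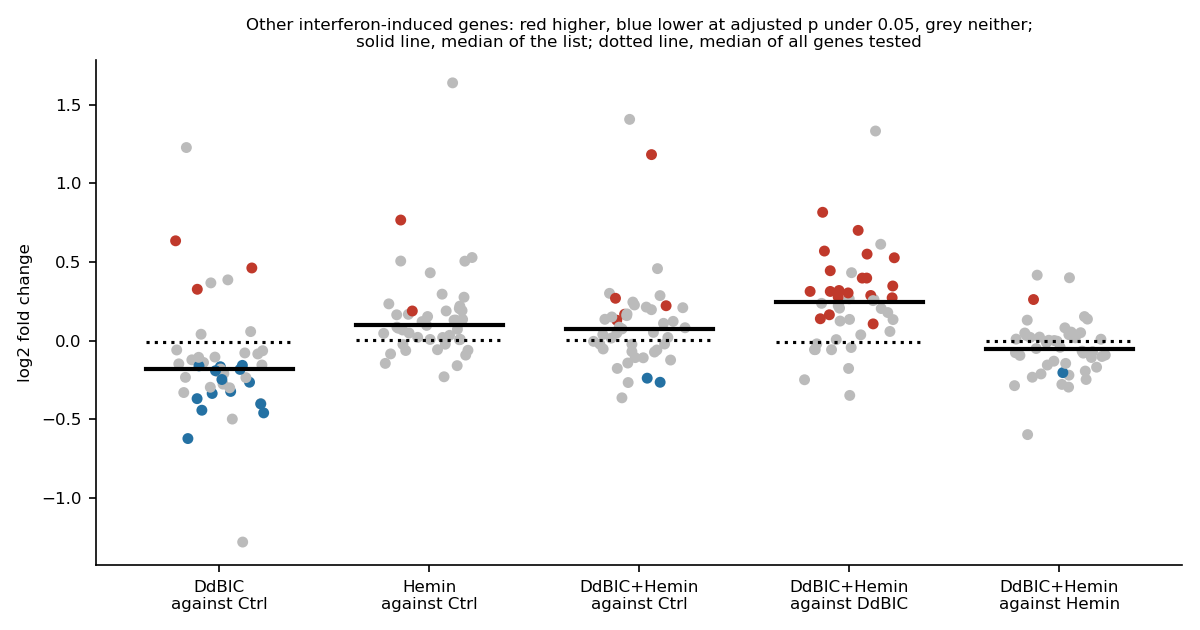
Log2 fold change of the 45 tested other interferon-induced genes (points, spread sideways at random for visibility) in 5 comparisons. Solid lines are the medians of the list and dotted lines those of all genes: the list lies at -0.18 for DdBIC against Ctrl and at 0.25 for both agents against DdBIC.

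Against Ctrl, the cells given both agents differed in 2 of the 9 members, 1 higher and 1 lower, among 12.4% of all genes. IRF7 was still higher (0.30 ± 0.079, adjusted p = 0.0295) and IRF3 was lower (-0.35 ± 0.094, adjusted p = 0.0324). Neither call held up when single libraries were left out. That of IRF7 was lost without any Ctrl library or without replicate 1 or 3 of both agents (adjusted p of 0.0639 to 0.103, log2 fold changes of 0.26 to 0.32). That of IRF3 was lost without any Ctrl library or without replicate 1 or 2 of both agents (0.0627 to 0.112, log2 fold changes of -0.38 to -0.29). IRF1 had a log2 fold change of 0.21, with an interval from 0.04 to 0.39 (adjusted p = 0.117). Against Hemin alone, none of the 9 members was called in edgeR or DESeq2 and none had an unadjusted p under 0.05, among 6.80% of all genes called. The 971 genes behind that share became 621 and 625 without Hemin replicate 1 and 3, and 612 without replicate 1 of both agents. The log2 fold change of IRF1 there was -0.07 and that of IFIT1 -0.09.

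Whether the effect of DdBIC differed with and without hemin was tested as an interaction. It was called for 3 of the 9 members, 1 higher and 2 lower, among 16.6% of all genes. The interaction of IRF1 was -1.76 ± 0.11 on the log2 scale (SE, adjusted p = 2.20e-06): DdBIC changed IRF1 by 1.69 without hemin and by -0.07 with it. That of IRF7 was -0.58 ± 0.11 (adjusted p = 0.00458), and both held in each alternative run. That of IFIT1 was 0.67 ± 0.20 (adjusted p = 0.0403), with the effect of DdBIC at -0.76 without hemin and -0.09 with it. The IFIT1 call was lost without any single library except DdBIC replicate 2 or replicate 3 of both agents, with adjusted p of 0.0527 to 0.0916 and interactions of 0.55 to 0.72. IFIT2, IFIT3 and MX1 had interactions of 0.51, 0.20 and 0.33 that did not pass (adjusted p = 0.324, 0.492 and 0.296).

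The genes whose log2 CPM followed these 3 members most closely over the 12 libraries were listed by Pearson correlation among 14286 genes. The libraries share 4 treatments, so the values describe likeness across treatments. For IRF1 they were ABL2 (0.991), TXNIP (0.991) and NOCT (0.990). For IRF7 they were GPCPD1 (0.988), POLR3D (0.981) and ARHGEF2 (0.981), and for IFIT1 KPNA2 (0.967), STOML2 (0.963) and LIPT2 (0.958).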

How the data were processed

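RNA-seq of A375 cells (12 libraries, 4 groups of 3 by the treatment label) was analysed. The authors deposited 1 table with read counts per gene, not normalized, TPM, scaled by length and to 1 sum per library, and FPKM, which was deposited beside them and not used. The submitters' processing notes name Trim Galore, Subread, featureCounts and hg38; versions and use of strand are not given in the sources used here. Counts were fitted with edgeR 4.0.16 (quasi-likelihood, TMM, filterByExpr, 1 mean per group, all 12 libraries) in R 4.3.3, and p-values were Benjamini-Hochberg adjusted over 14287 genes with a threshold of 0.05. Intervals are 95%. Alternatives were DESeq2 1.42.0, other scalings and filters, a replicate block, only the 2 groups of a comparison, leaving out each library, and, added after seeing the data, summed counts of spanning genes. Named beside the members are list genes past the threshold and 1 or more in absolute log2 fold change in DdBIC or Hemin against Ctrl or in both agents against DdBIC, preset pathway genes, the 3 genes most like each member with an interaction, and HMOX1. Outside this rule are the genes that overlap members and those said to be named after their values were seen. Some items are not reported here. The members and lists were chosen with earlier results of these data known. The fit was tested on simulated data.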

Additional observations from a re-analysis of the deposited data

Results flagged for a closer look

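The effect of DdBIC differed between cells without and with hemin, by the interaction in edgeR, for 3 members. The difference (effect with hemin minus effect without, log2) was -1.76 for IRF1, -0.58 for IRF7 and 0.67 for IFIT1. Among the pathway genes named in the report it was -2.03 for SOCS1 (adjusted p = 6.27e-04), -1.05 for SOCS3 (adjusted p = 1.19e-04) and -0.83 for TICAM1 (adjusted p = 1.93e-04). Among the 45 other interferon-induced genes tested it passed for 4, named after their values were seen: PARP9 (0.43), UBE2L6 (0.33) and LGALS3BP (0.24) were above 0 and TRIM25 (-0.45) was below 0. Of all genes 16.6% were called, so the list holds no larger share of calls than the background. With upper-quartile scaling 9 of the list were above 0 and 0 below, and the split over all genes turned from 914 higher and 1462 lower to 1497 and 1203.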

How the results depend on the processing

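The calls of IRF1, IRF7 and IFIT1 for DdBIC against Ctrl and for both agents against DdBIC kept their direction and their side of the threshold in each alternative run. For Hemin against Ctrl, DESeq2 called 2 members instead of 0. For both agents against Ctrl, the fit of only the groups compared called 1 member instead of 2, and leaving out 1 library gave 0 to 2. Over all genes that fit called 542 higher and 704 lower, against 808 and 963 in the main fit. Each run without 1 library also called fewer genes than the main fit. IRF9 counted by itself, at -1.19 in that comparison (adjusted p = 0.0637), was called lower there with DESeq2 (adjusted p = 0.0174) and without Ctrl replicate 3 (-1.51, adjusted p = 0.0111), was at -0.49 without Ctrl replicate 1 (adjusted p = 0.159) and at 0.07 when summed with AL136295.5 (adjusted p = 0.604). Whether the replicate numbers pair the samples was not settled. Same-numbered libraries of different groups had deviations correlated at -0.05 to 0.08, and other-numbered ones at -0.07 to 0.08. Of the 12 libraries 8 correlated best with their own number. With the replicate block 1 member was called for both agents against Ctrl, among 675 genes called higher and 825 lower. With the block the calls of IFIT3 for both agents against DdBIC (adjusted p = 0.0511) and of the IFIT1 interaction (adjusted p = 0.0670) were lost. With IRF9 summed with AL136295.5, the log2 fold change of IRF9 was 0.21 for DdBIC against Ctrl, 0.44 for Hemin against Ctrl and -0.57 for the interaction, each of the opposite sign to the fit of IRF9 alone, and 1 member was called for Hemin against Ctrl and 1 for both agents against Hemin. The IFIT1 interaction was also lost with DESeq2 (adjusted p = 0.0567) and with no filter on low counts (0.0555), and the IRF9 and IFIT2 calls for DdBIC against Ctrl were lost in the fit of only the groups compared (0.114 and 0.0508). The cause of these changes was not tested. IFIT2, at 20 to 57 counts a library, has the widest intervals of the IFIT genes.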
